A study of Homo sapiens with 4 samples.

Results

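The ZFP36 family is the set of 3 human genes ZFP36, ZFP36L1 and ZFP36L2, which were followed here among 60719 genes counted in RNA that co-purified with KIF5A. They were chosen by symbol, with their difference between the groups already known, so their own values below are a description and carry no test. KIF5A is a heavy chain of kinesin-1, the motor that carries cargo outward along neuronal microtubules. Human neuroblastoma cells of the established line SK-N-AS were transfected with a V5-tagged construct of wild-type (WT) KIF5A or of the mutant that the labels call d27, one of the KIF5A mutations that the series title ties to amyotrophic lateral sclerosis (ALS). Anti-V5 magnetic beads were used on cells taken a day after transfection, and RNA from 2 precipitates of each construct was sequenced. Both groups keep whatever KIF5A the cells make themselves, and neither carries any other labelled allele or agent. Nothing in the labels says that the replicates came from separate cultures, so the p-values below rest on a between-library spread that may be only technical. The precipitates were not set against input RNA, a mock precipitate or untransfected cells here. A transcript that is more abundant in the cells and one that is pulled down more efficiently therefore cannot be told apart, nor can more cells holding a transcript and more of it per cell.

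ZFP36 (also called tristetraprolin or TTP), ZFP36L1 and ZFP36L2 encode zinc finger proteins that bind AU-rich elements in the 3′ untranslated region (3′ UTR) of short-lived mRNAs. They recruit the CCR4-NOT deadenylase, which removes the poly(A) tail and so starts decay of the bound mRNA. ZFP36 is an immediate-early gene, switched on within minutes by growth factors and stress, and its mRNA carries AU-rich elements of its own, through which the protein limits its own synthesis. The p38 kinase cascade, through MAPKAPK2, phosphorylates ZFP36 so that it binds 14-3-3 proteins and destabilises mRNA less well, and the phosphatase PP2A reverses this. ZFP36L1 and ZFP36L2 are best known for roles in development and in the quiescence of lymphocyte precursors.

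All 3 genes have 2 exons in their principal transcript, with no other annotated gene overlapping them on either strand (GENCODE release 29, GRCh38). ZFP36 (ENSG00000128016) lies on chromosome 19, 39406813 to 39409412, plus strand. ZFP36L1 (ENSG00000185650) lies on chromosome 14, 68787660 to 68796253, minus strand. ZFP36L2 (ENSG00000152518) lies on chromosome 2, 43222402 to 43226609, minus strand. In those transcripts their 3′ UTRs are 713, 1871 and 1917 bases long, while the longest annotated 3′ UTR of ZFP36L1 has 2828 bases. Each of these holds the heptamer UAUUUAU, the core that the family binds, exactly 3 times. The 9 sites are shown because they are the family's own kind of binding site in its own mRNAs. Each is written 5′ to 3′ on the transcript's strand, with up to 11 bases on either side and the heptamer in capitals.
ZFP36 site 1: aaugggcccuuUAUUUAUgacgacuuuau
ZFP36 site 2: uaugacgacuuUAUUUAUucuaauaugau
ZFP36 site 3: ugauuuuauagUAUUUAUauauauugggu
ZFP36L1 site 1: uuaucaaaacgUAUUUAUugccaaacuau
ZFP36L1 site 2: aauuuuguucaUAUUUAUcgggaugacaa
ZFP36L1 site 3: aacuguuggauUAUUUAUuuuagaaauuc
ZFP36L2 site 1: acuauuuaacuUAUUUAUuaucuugugaa
ZFP36L2 site 2: uguucauacugUAUUUAUcaaguaugaug
ZFP36L2 site 3: auuguauguaaUAUUUAUuucauuaauuu

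The sites lay closest together in ZFP36, where a stretch of 47 bases held all 3, starting 492 bases after the stop codon (39409181 to 39409249 on chromosome 19 with the flanks shown). In ZFP36L1 the 3 sites spanned 266 bases and in ZFP36L2 243 bases. Each 3′ UTR held the longer word UUAUUUAUU once. Of 12233 tested genes with an annotated 3′ UTR, 7.32% held the heptamer 3 times or more and 9.92% held the longer word at least once, counted on the transcript's strand in each gene's longest 3′ UTR. Genes with 3 or more heptamers had long 3′ UTRs, with a median of 4561 bases. Among the 4079 genes with a 3′ UTR of at most 849 bases, the range that holds ZFP36, 22 had 3 or more. A match is a run of letters, not evidence that the site is bound in these cells.

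**Figure D1:**
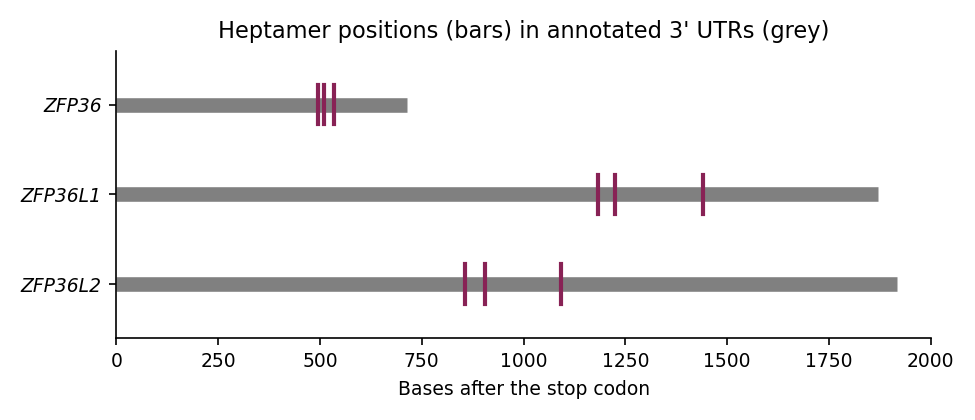
Positions of the AU-rich heptamer (coloured bars) along the annotated 3′ UTR (grey) of the principal transcript of each gene, in bases after the stop codon. The 3 heptamers of ZFP36 fall within 47 bases, those of ZFP36L1 within 266 and those of ZFP36L2 within 243.

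Gene counts per library ran from 8142869 to 18335151, and 19369 to 26305 genes had at least 1 count. Entries not assigned to a gene were 47.3% to 47.6% of the total in WT and 25.9% to 36.8% in d27, and the part of that gap in the results was not tested. Counts of replicates scattered beyond sampling noise (chi-square over its degrees of freedom 35.6 to 53.3). KIF5A itself, whose count does not separate transfected from endogenous transcripts, took between 9.03% and 14.8% of gene counts and had a log2 fold change of -0.20 ± 0.49 (SE). The neuroblastoma markers PHOX2A, HAND2 and GATA3 were present in all libraries, while the catecholamine enzymes TH and DBH were at most 0.569 and 1.48 CPM. CPM here are gene counts brought to a common library size with TMM factors (trimmed mean of M values), so that libraries of different depth can be compared. All 6 mesenchymal neuroblastoma markers were present, with summed levels of 2672 to 3442 CPM. That sum hides differences in both directions. Against both WT libraries, both d27 libraries were lower in VIM and FN1 and higher in YAP1, SNAI2 and CD44, while PRRX1 overlapped. Of the 4 blood cell markers HBB had no count in any library, LYZ and CD74 stayed at or below 3.22 CPM, and PTPRC stood at 79.8 to 190 CPM, higher in both WT libraries. The part of any of these cells in the results was not tested.

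ZFP36 mRNA differed most between the groups. It had 244 and 181 counts in WT replicates 1 and 2, and 6058 and 4310 counts in d27 replicates 1 and 2. Scaled for library size, these were 27.8 and 18.8 CPM in WT against 330 and 401 CPM in d27. Both d27 libraries stood far above both WT libraries, and even the closest pair of libraries differed 11.9-fold. The group means were 23.3 ± 6.3 and 365 ± 50 CPM (SD, n = 2 each), a log2 fold change of 3.97 ± 0.31 (SE), or 15.7-fold. Replicates within a group differed by a factor of 1.48 in WT and 1.22 in d27. Of 14909 genes tested, 48 had a log2 fold change as high as that of ZFP36 or higher, itself included.

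ZFP36L1 was the most counted family member in WT. It had 831 and 652 counts in WT replicates 1 and 2 (94.6 and 67.8 CPM), and 6783 and 3255 counts in d27 replicates 1 and 2 (369 and 303 CPM). The groups did not overlap, and the closest pair of libraries differed 3.20-fold. The means were 81.2 ± 18.9 CPM in WT and 336 ± 47 CPM in d27 (SD, n = 2 each), a log2 fold change of 2.05 ± 0.27 (SE), or 4.14-fold. That placed ZFP36L1 at rank 402 of the tested genes by log2 fold change.

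ZFP36L2 differed least. It had 567 and 522 counts in WT (64.5 and 54.3 CPM) and 2509 and 1223 counts in d27 (137 and 114 CPM). The 2 groups again did not overlap, but the closest pair of libraries differed only 1.76-fold. The means were 59.4 ± 7.3 and 125 ± 16 CPM (SD, n = 2 each), a log2 fold change of 1.08 ± 0.24 (SE), or 2.11-fold, at rank 1998.

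All 3 genes were among those called higher in d27 by edgeR at an adjusted p under 0.05, a call that 8.00% of the tested genes received. Because the genes were picked with these values known, nothing is read from that count. In 31.4% of tested genes both d27 libraries stood above both WT libraries. ZFP36 and ZFP36L1 were among the called genes in each of the 12 alternatives, and ZFP36L2 was not without WT replicate 2 (log2 fold change 0.98), without d27 replicate 1 (0.95) or with library totals alone in place of TMM scaling (1.11). The order ZFP36, ZFP36L1, ZFP36L2 by log2 fold change was the same in every alternative. ZFP36 ranged from 3.74 to 4.32, ZFP36L1 from 1.85 to 2.35 and ZFP36L2 from 0.91 to 1.25, so the 3 ranges did not overlap.

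**Figure D2:**
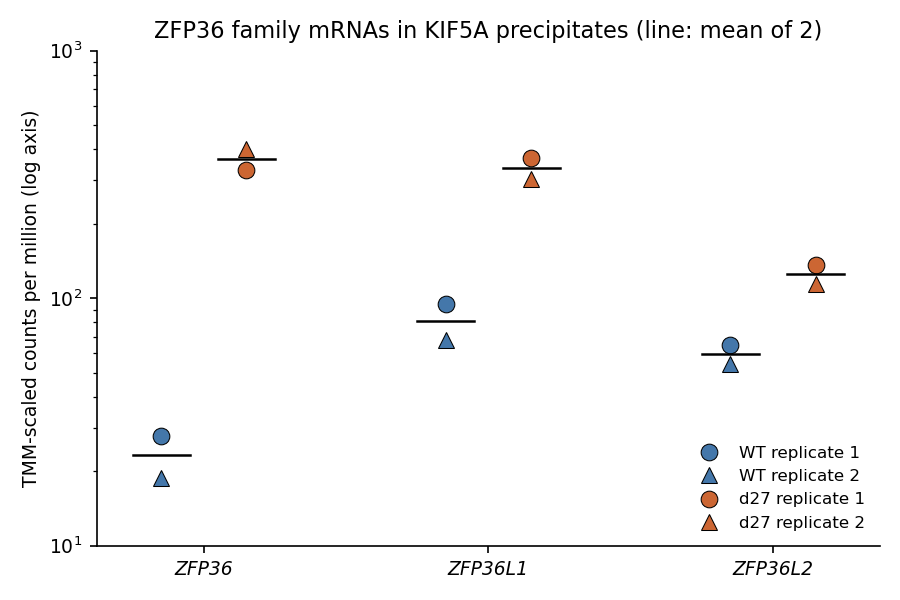
TMM-scaled CPM (log axis) of each family member in the WT libraries (blue) and d27 libraries (orange), with circles for replicate 1, triangles for replicate 2 and lines for the mean of 2. ZFP36 moves from 18.8 to 27.8 CPM in WT to 330 to 401 CPM in d27, the widest gap of the 3 genes.

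Counting error was small beside the spread between libraries. As a share of all gene counts, without TMM scaling, ZFP36 was at 30.0 CPM in WT replicate 1 (exact binomial 95% interval 26.3 to 34.0) and 16.7 in WT replicate 2 (14.4 to 19.4). In d27 it was 330 (322 to 339) and 411 (399 to 424). These intervals cover counting error only, since the reads carried no molecular identifiers. Set against the bait's own transcript, ZFP36 had 0.332 and 0.113 counts per 1000 KIF5A counts in WT and 3.05 and 3.67 in d27. On that scale ZFP36L1 had 1.13 and 0.408 in WT and 3.41 and 2.77 in d27, and ZFP36L2 had 0.771 and 0.327 in WT and 1.26 and 1.04 in d27. For each gene both d27 libraries again lay above both WT libraries, although WT replicate 2, with the highest KIF5A share, gave the lowest ratio of the 4 libraries.

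Per length of exon, ZFP36 went from the lowest of the 3 mRNAs to the highest. In CPM per kilobase of exon it was at 13.8 and 9.36 in WT and at 164 and 199 in d27. ZFP36L1 was at 18.3 and 13.1 in WT and at 71.5 and 58.6 in d27 on that scale, and ZFP36L2 at 17.5 and 14.7 in WT and at 36.9 and 30.8 in d27. In WT the order of ZFP36L1 and ZFP36L2 differed between the replicates, so those 2 did not differ beyond their spread, and ZFP36 was below both in each library. In d27 the order was ZFP36, ZFP36L1, ZFP36L2 in both libraries, with no overlap between the genes.

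As a share of the family per kilobase, ZFP36 made up 26.5% ± 1.9 in WT and 64.6% ± 6.3 in d27 (SD, n = 2 each). ZFP36L1 made up 36.1% ± 1.1 and 23.3% ± 4.2, and ZFP36L2 37.3% ± 3.0 and 12.1% ± 2.1. The shares of ZFP36L1 and ZFP36L2 were thus lower in d27 although their levels were higher. With the longest coding transcript as the length, which is shorter for ZFP36L1, the ZFP36 share was 23.7% in WT and 59.4% in d27, and ZFP36L1 was the highest of the family in WT at 46.5%. The summed CPM of the 3 genes was 164 ± 33 in WT and 826 ± 13 in d27.

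**Figure D3:**
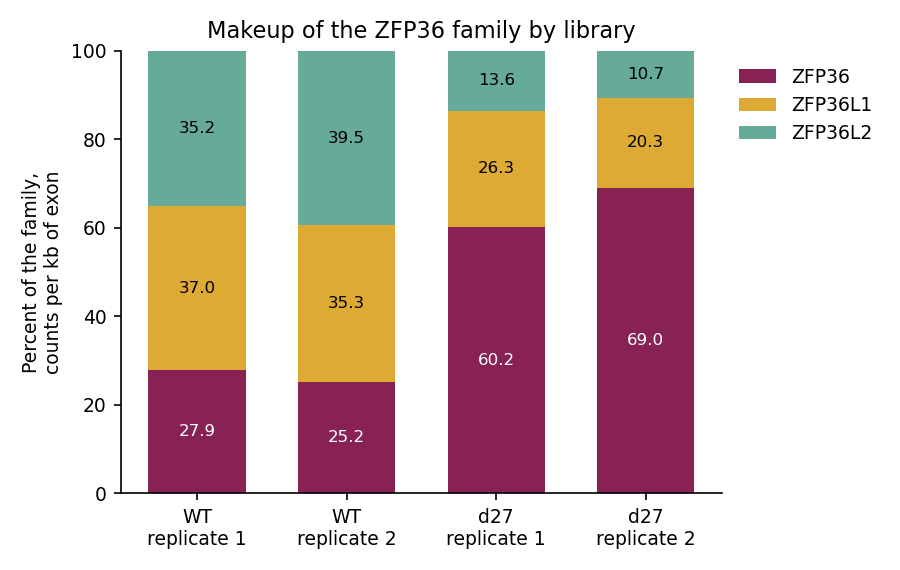
Share of each gene in the ZFP36 family, in percent of the summed counts per kilobase of exon, for each of the 4 libraries. ZFP36 is 25.2% to 27.9% of the family in WT and 60.2% to 69.0% in d27.

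Genes with the most similar profile over the 4 libraries were found by the root mean square difference of centred log2 CPM, among 9149 genes with a mean of at least 10 CPM. This likeness is dominated by the size of the difference between groups and rests on 4 libraries. For ZFP36 the nearest were IL11, a cytokine of the gp130 family (difference 0.16), FOSL1, an AP-1 transcription factor (0.27), RBPMS2, an RNA-binding protein (0.34), MYADM, a membrane protein (0.34), and ATF3, a stress-induced transcription factor (0.37). IL11 itself had 13.7 and 9.46 CPM in WT and 208 and 189 CPM in d27, and its 3′ UTR held 7 heptamers. Those of FOSL1, RBPMS2 and ATF3 held 1 each and that of MYADM 0. MYADM overlaps antisense transcripts, which cannot be told apart from it here because the strand setting of the counting is unknown.

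For ZFP36L1 the nearest were MIDN (0.046), the heparan sulfate proteoglycan SDC4 (0.059), FAM222B (0.059), INIP (0.079) and the Kruppel-like factor KLF6 (0.082). For ZFP36L2 they were ZNF467 (0.018), C8orf33 (0.034), DCUN1D4 (0.035), VGLL4, a cofactor of TEAD transcription factors (0.036), and the kinase MARK2 (0.043). FAM222B and VGLL4 overlap protein-coding genes on the opposite strand, with the same limit as MYADM. The family members were not each other's neighbours. ZFP36 and ZFP36L1 differed by 0.97, with 128 genes nearer to ZFP36 and 4051 nearer to ZFP36L1. ZFP36L1 and ZFP36L2 differed by 0.50, with 960 genes nearer to ZFP36L1 and 3815 nearer to ZFP36L2. ZFP36 and ZFP36L2 differed by 1.46, with 1146 genes nearer to ZFP36 and 9047 nearer to ZFP36L2.

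Several known AU-rich target mRNAs of the family were higher in d27 as well. Of 38 listed targets, 14 had too few counts to test, among them the cytokine mRNAs TNF, IL2, IL3, IL6 and IFNG, none of which had a count in WT. TNF, the classic ZFP36 target, had 14 and 16 counts in d27 replicates 1 and 2. CSF2, another untested cytokine target, had 1 and 40 counts in WT and 7 and 6 in d27. Both were singled out after their values were seen. Of the 24 tested, 6 rose (25.0%, against 8.00% of all tested genes), 0 fell (3.70% of all tested genes fell) and 18 did not pass edgeR. At an unadjusted p under 0.05, 8 were higher and 2 lower, and DESeq2 called 8 higher and 1 lower. The median log2 fold change of the 24 was 0.44, against 0.00 over all tested genes. The list was written with earlier results of these data known, so its count is no independent evidence of a direction. It became 9 higher and 3 lower without WT replicate 1.

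FOS, an AP-1 subunit and a classic short-lived mRNA, rose from 10.5 and 16.0 CPM in WT to 324 and 426 CPM in d27 (log2 fold change 4.82 ± 0.34 SE, edgeR adjusted p = 0.00226). PIM1, a survival kinase, was at 19.3 and 24.2 CPM in WT and 75.5 and 67.2 CPM in d27 (1.71 ± 0.27, edgeR adjusted p = 0.0129). IER3, an early response gene of stress and NF-kappa-B signalling, was the most abundant of those that rose, with 301 and 279 CPM in WT and 851 and 908 CPM in d27 (1.60 ± 0.25, edgeR adjusted p = 0.0137). All 3 had non-overlapping groups and passed in each alternative. CXCL2, a neutrophil chemokine, had 6 and 5 counts in WT and 85 and 102 counts in d27 (3.53 ± 0.68, edgeR adjusted p = 0.0213), and its call was lost without d27 replicate 2 (edgeR adjusted p = 0.155).

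The chemokine CCL2 (log2 fold change 1.87) and ODC1 (0.95), the first enzyme of polyamine synthesis, also rose and were named after their values were seen. Among the 6 that rose, the longest 3′ UTRs of CXCL2, IER3, PIM1 and FOS held 8, 4, 4 and 2 heptamers, and those of CCL2 and ODC1 none. Targets as rich in the heptamer did not pass, such as the cytokine LIF with 5 heptamers (log2 fold change -0.02 ± 0.44 SE) and the prostaglandin synthase PTGS2 with 7 (0.38 ± 0.46). VEGFA, the vascular growth factor, had 3 heptamers and a log2 fold change of 0.23 ± 0.23. Others that did not pass went the other way. PLAU with 2 heptamers (-1.08 ± 0.35), PLAUR with 0 (-0.91 ± 0.29) and CD274 with 5 (-0.76 ± 0.36) were lower in both d27 libraries than in both WT libraries. Of the 24 tested targets, 16 had a log2 fold change above 0. All of these targets that did not pass were also named after their values were seen. IER3 overlaps an antisense transcript, with the same limit as MYADM.

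Across all 12233 tested genes with a 3′ UTR, the median difference between d27 and WT was compared over the number of heptamers, with no test. Genes with no heptamer (7774) had a median log2 fold change of 0.01, those with 1 (2528) of 0.10, those with 2 (1036) of 0.26 and those with 3 or more (895) of 0.15. The share called higher in d27 was 9.02%, 10.8%, 10.7% and 8.49% in the same order. Genes with at least 1 heptamer had a median 0.14 above that of genes with none. That was less than the SD of 0.19 of this difference over the 4 pairings of a d27 with a WT library. The pairings reuse the same libraries, so this SD describes their spread and is not the error of the 0.14. The difference was 0.0076 without d27 replicate 1, 0.058 without WT replicate 2, 0.23 without WT replicate 1 and 0.29 without d27 replicate 2.

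The length of the 3′ UTR moved with that difference. The tested genes were split by 3′ UTR length into 3 equal classes, of up to 849 bases, 850 to 2265 bases and 2266 bases or more, with median log2 fold changes of -0.17, 0.14 and 0.18. Within the middle and the longest class, genes with and without a heptamer differed by 0.0065 and 0.027, and within the shortest by 0.10. The heptamer AUAAAUA, the reverse complement, which has the same A+U content but A and U exchanged, gave a difference of 0.11 over all genes. Among short 3′ UTRs its medians were -0.15, -0.27 and -0.21 for 0, 1 and 2 copies, and 0.41 for 3 or more (9 genes). Those of UAUUUAU in that class were -0.18, -0.10, 0.19 and 0.22 in the same order. The gap between the 2 words there was not tested. ZFP36, with 3 heptamers in 713 bases, falls in the class of short 3′ UTRs. There 22 genes, ZFP36 included, had 3 or more heptamers, with a median log2 fold change of 0.22 (quartiles -0.46 to 0.95). Of these, 2 were called higher (9.09%, near the 8.00% of all tested genes), ZFP36 itself and the listed target CXCL2.

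**Figure D4:**
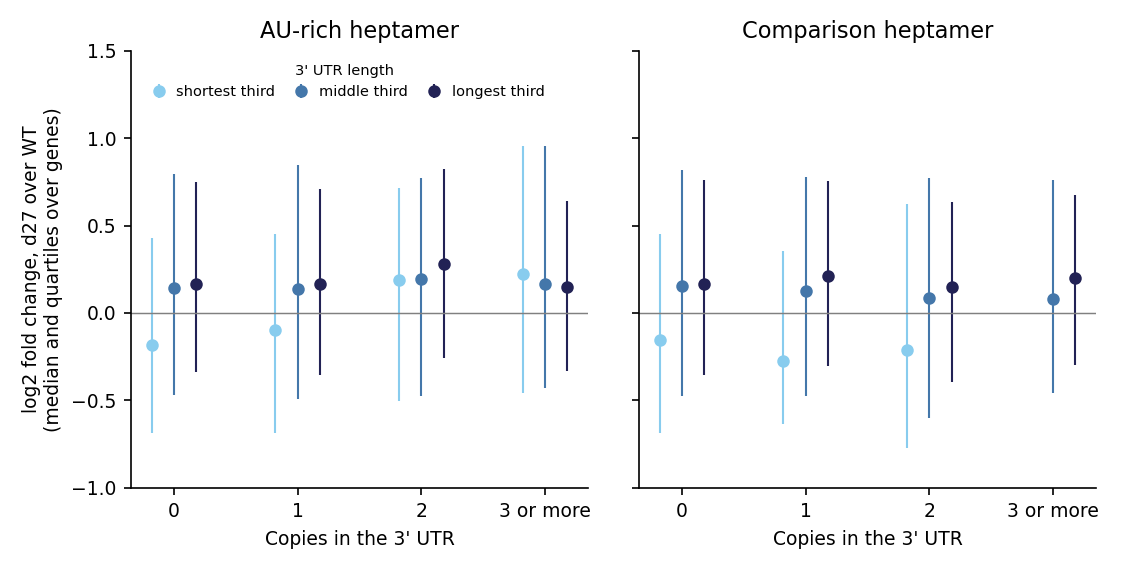
Median log2 fold change of d27 over WT, with quartiles over genes, against the number of copies of the AU-rich heptamer (left) or of its reverse complement (right) in the 3′ UTR, within 3 classes of 3′ UTR length. Classes under 20 genes are left out. In the middle and longest classes the medians stay between 0.08 and 0.28 whatever the copy number, and genes with short 3′ UTRs and no AU-rich heptamer lie at -0.18.

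The listed genes of mRNA decay were called in both directions, and most did not pass, like 13166 of all 14909 tested genes. All 42 listed genes were tested, of which 8 rose (19.0%, against 8.00% of all tested genes), 3 fell (7.14%, against 3.70%) and 31 did not pass, with a median log2 fold change of 0.25. The 2 TOB proteins, antiproliferative adaptors that bind the CCR4-NOT deadenylases, were the lowest in p. TOB1 rose from 23.1 and 33.2 CPM in WT to 111 and 107 CPM in d27 (log2 fold change 1.95 ± 0.27 SE, edgeR adjusted p = 0.00991), and TOB2 from 65.5 and 51.9 CPM to 199 and 168 CPM (1.64 ± 0.25, edgeR adjusted p = 0.0119). LSM1, part of the ring that binds deadenylated mRNA ends (1.50 ± 0.26), and the decapping cofactor DCP1B (1.66 ± 0.30) also rose. TOB1, LSM1 and DCP1B overlap genes on the opposite strand, so their counts are uncertain without the strand setting.

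In contrast CNOT1, the scaffold of CCR4-NOT that ZFP36 proteins bind, fell from 469 and 578 CPM in WT to 238 and 276 CPM in d27 (log2 fold change -1.03 ± 0.26 SE, edgeR adjusted p = 0.0415). The decapping scaffold EDC4 (-1.07 ± 0.26) and GIGYF2, a translational repressor that ZFP36 also binds (-1.05 ± 0.27), fell likewise. CNOT1 and GIGYF2 also overlap other annotated genes on the opposite strand. All 3 of these calls were lost without WT replicate 2, without d27 replicate 1 and with library totals alone. Those of CNOT1 and GIGYF2 were also lost without d27 replicate 2 and with an offset for GC content and exon length. With WT replicate 1 left out 13 rose in place of 8. The number was 4 with WT replicate 2 left out, 5 with d27 replicate 1 left out, and 5 with library totals alone. At an unadjusted p under 0.05, 13 were higher and 5 lower. The others that rose, named after their values were seen, were CNOT9 (1.25), BTG1 (1.42), EXOSC6 (1.32) and PATL1 (0.86). EXOSC6 and PATL1 were close to the threshold (edgeR adjusted p = 0.0497 and 0.0461). CNOT9, BTG1 and PATL1 also overlap other annotated genes on the opposite strand.

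Of the 23 listed kinases, phosphatase subunits and 14-3-3 proteins that act on the family, 22 were tested, and 8 rose (36.4%, against 8.00% of all tested genes), 0 fell by edgeR (3.70% of all tested genes fell) and 14 did not pass. None was lower at an unadjusted p under 0.05 or by DESeq2, and the median log2 fold change was 0.80. Of the 6 listed genes of the p38 cascade, 2 rose, MAP2K3, a kinase that activates p38, and MAPKAPK2, the kinase that phosphorylates ZFP36. MAP2K3 rose from 31.2 and 34.4 CPM in WT to 108 and 142 CPM in d27 (log2 fold change 1.93 ± 0.26 SE, edgeR adjusted p = 0.00898), and MAPKAPK2 from 146 and 132 CPM to 346 and 382 CPM (1.39 ± 0.24, edgeR adjusted p = 0.0156). The p38 kinase gene MAPK14 was at 38.2 CPM in WT and 49.0 CPM in d27 on average and did not pass (0.36 ± 0.34). Nor did its paralog MAPK11 (1.01 ± 0.43), MAPKAPK3 (0.39 ± 0.32) or MAP2K6, the other p38-activating kinase listed, which was at 37.8 and 24.2 CPM in WT and 30.3 and 22.9 CPM in d27 (-0.22 ± 0.32). These 4 were named after their values were seen.

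MAPK3, which encodes the ERK1 kinase, rose from 19.0 and 23.2 CPM to 78.2 and 99.6 CPM (log2 fold change 2.07 ± 0.27 SE, edgeR adjusted p = 0.00877). YWHAG, a 14-3-3 protein, was abundant in both groups, at 440 and 409 CPM in WT and 1350 and 1108 CPM in d27 (1.53 ± 0.27, edgeR adjusted p = 0.0178). MAP2K3, MAPKAPK2, MAPK3 and YWHAG passed in each alternative. The PP2A catalytic subunit gene PPP2CB (1.08) and the 14-3-3 genes YWHAH (1.02) and YWHAZ (1.25), named after their values were seen, also rose. YWHAH and MAPKAPK2 overlap other annotated genes on the opposite strand, so their counts are uncertain without the strand setting. Leaving out WT replicate 1 gave 12 genes that rose, leaving out WT replicate 2 gave 4, and leaving out d27 replicate 1 gave 5, as did library totals alone.

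The last list held other proteins that bind AU-rich elements or related decay signals. Of 16 tested, 2 rose (12.5%, near the 8.00% of all tested genes), 0 fell by edgeR (3.70% of all tested genes fell) and 14 did not pass, with a median log2 fold change of 0.42. At an unadjusted p under 0.05, 4 were higher and 1 lower, and DESeq2 called 3 higher and 1 lower. ZC3H12A, which encodes the endonuclease regnase-1 that cuts stem-loops in cytokine mRNAs, rose from 11.2 and 25.8 CPM to 56.9 and 97.1 CPM (log2 fold change 2.06 ± 0.44 SE, edgeR adjusted p = 0.0292). With 1 library left out, its log2 fold change ranged from 1.62 (without WT replicate 1) to 2.80 (without WT replicate 2). KHSRP, another destabiliser of AU-rich mRNAs, rose from 421 and 413 CPM to 907 and 833 CPM (1.06 ± 0.25, edgeR adjusted p = 0.0363). The KHSRP call was lost when WT replicate 2 or either d27 library was left out, with log2 fold changes of 1.07, 1.02 and 1.15. ELAVL1, the stabiliser HuR that competes for AU-rich elements, did not pass (0.66 ± 0.24) and was named after its value was seen. Leaving out WT replicate 1 gave 4 that rose and 1 that fell, and leaving out WT replicate 2 or d27 replicate 1 gave 1 that rose.

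**Figure D5:**
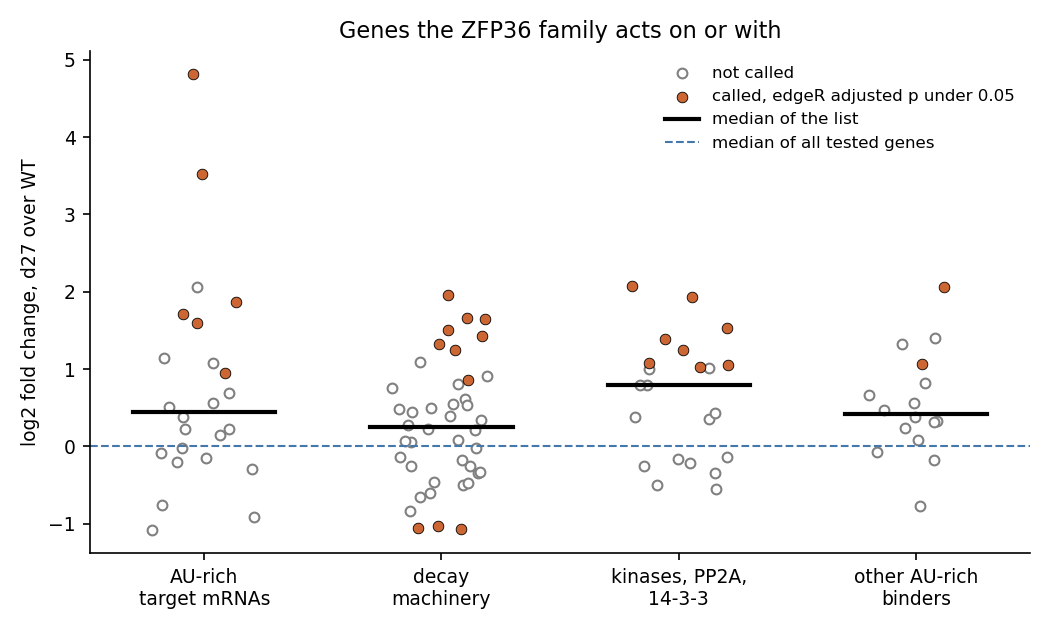
Log2 fold change of d27 over WT for each tested gene of the 4 lists, with filled points for genes called by edgeR, solid lines for the median of a list and a dashed line for the median of all tested genes. The list medians lie between 0.25 and 0.80, and the decay machinery is the list with called genes on both sides.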

How the data were processed

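The authors deposited raw read counts per gene, 1 table per library, made with HTSeq on GRCh38 per the submitters' processing notes, which also name DESeq2. Per the labels' protocols, Trizol RNA was depleted of ribosomal RNA and made into strand-marking libraries. Which aligner, annotation release and strand setting were used is, in the sources used here, not given. HTSeq's summary entries were left out. Symbols matched 60463 of 60719 genes and GENCODE release 29 matched 58488. Sequences are GENCODE 29 transcripts.

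Counts were filtered with filterByExpr (minimum count 10, minimum total 15), which left 14909 genes. They were TMM-normalised and tested on group alone with edgeR 4.0.16 quasi-likelihood F tests in R 4.3.3, with Benjamini-Hochberg adjustment over all tested genes and calls at an adjusted p under 0.05. A fold change is the d27 level divided by the WT level. The fit was checked on simulated counts of both groups. Of genes given a 2-fold change 16.0% were called, against 81.8% at 4-fold and 98.4% at 8-fold. A gene that did not pass may therefore still differ about 2-fold. Alternatives included DESeq2 1.42.0, other scalings and filters, each library left out and a replicate block.

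The family and the gene lists were chosen with earlier results of these data known. Named genes are the family members, KIF5A, up to 4 called genes per list and direction by lowest p, and the 5 nearest profiles per member (0.5 added to CPM before the log). Others are said to be named later. Values of some genes are not reported here.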

Additional observations from a re-analysis of the deposited data

How the results depend on the processing

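The 1743 called genes became 2909 with DESeq2, 2862 with no filter and 3575 with a replicate block, and ranged from 768 to 4851 with 1 library left out. Whether libraries with the same replicate number share a batch is not given in the labels. The correlation of replicate deviations between WT and d27 was 0.097 across tested genes, which cannot decide it. With the replicate block the log2 fold changes of ZFP36, ZFP36L1 and ZFP36L2 were 3.99, 2.06 and 1.07. Leaving out KIF5A from the totals, an alternative chosen after seeing the data, gave 1736 calls and left those 3 values at 3.97, 2.05 and 1.08.

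Among the listed targets, 1 was called lower with DESeq2, 1 with at least 50 counts in at least 2 libraries, 1 with the replicate block and 2 with the offset for GC content and exon length, and 0 to 3 with 1 library left out. In the decay machinery, 5 rose and 0 fell with library totals alone, and 4 to 13 rose and 0 to 3 fell with 1 library left out. Of the kinases, phosphatase subunits and 14-3-3 proteins, 5 rose with library totals alone and 4 to 12 with 1 library left out. Of the other AU-rich binders, 4 rose and 1 fell with the replicate block, 1 fell with DESeq2, and 1 to 4 rose and 0 to 1 fell with 1 library left out. The ZFP36 share of the family in WT, 26.5% per kilobase of exon union, was 23.7% per kilobase of the longest coding transcript. The cause of these changes was not tested, and a left-out library also leaves fewer samples. No log2 fold change of a family member or of a list gene named by the stated rule changed sign in the 12 alternatives run on it. The median over all tested genes moved from 0.00 to 0.04 with library totals alone and to 0.31 with no filter. With 2 libraries per group, the smaller differences and genes under about 10 counts were at the limit of what these libraries can show.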
